A study of Mus musculus with 6 samples.

Results

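The nuclear-encoded subunits of the mitochondrial respiratory chain and ATP synthase were described in mouse cumulus granulosa cells, the somatic cells that surround the oocyte. Members were the rows with a symbol of Ndufa, Ndufb, Ndufc, Ndufs or Ndufv followed by a digit, with the symbols Sdha to Sdhd, Cyc1 or Cycs, or starting with Uqcr, Atp5 or Cox4 to Cox8, where the base mean was above 3.3. The base mean is the mean over all libraries of read counts divided by a size factor for each library. These symbols matched 87 of 24982 rows, and 80 of them passed the limit and were members. By complex these were 34 genes of complex I, 4 of complex II, 9 of complex III, 1 for cytochrome c, 15 of complex IV and 17 of complex V. Cells came from Kun-Ming mice, and 3 libraries labelled control were compared with 3 libraries labelled Atg5-KD, in which transfected short hairpin RNAs targeted Atg5, a gene needed for attaching LC3 to the autophagosome membrane. What the control cells received and whether a group's libraries were separate cultures are not given in the sources used here, so p-values cover only the variation among these libraries, possibly technical. The authors' deposited table holds 1 value per gene for the comparison and none per library. Group means below were estimated from its base mean and log2 fold change, and the error of each difference is the standard error (SE) of that table. At the authors' size factors the transcript of Atg5 does not bear out the label. The rescaling to all reads described further on shifts every log2 fold change by -0.30. At that scale Atg5 would be lower still, and whether it would be called lower there was not tested. Its estimated means were 414 normalized counts in control libraries and 397 in those labelled Atg5-KD, and it stood at -0.06 ± 0.14 (SE) in the authors' deposited table (interval from -0.34 to 0.21, DESeq2 Wald adjusted p = 0.822). Atg5-KD is therefore used only as the label of these libraries.

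The respiratory chain passes electrons from NADH (complex I) and succinate (complex II) through coenzyme Q to complex III, cytochrome c and complex IV, and the protons moved on the way drive complex V, the ATP synthase. A few central subunits are encoded by mitochondrial DNA, and all subunits considered here are encoded in the nucleus, made in the cytosol and imported. Cumulus cells supply the oocyte with pyruvate and other metabolites through gap junctions, and the oocyte relies on its own mitochondria to oxidize them.

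No member was called between the groups. In the authors' deposited table, 0 of 80 members had a Benjamini-Hochberg adjusted Wald p under 0.05, against 20.9% of the 14835 tested genes (10.4% higher and 10.5% lower). The lowest adjusted p of a member in that table was 0.0566. At an unadjusted p under 0.05, 1 member stood higher and 11 lower, 15% of the members, against 31.5% of all tested genes (15.6% higher and 15.9% lower). The log2 fold changes of the authors' deposited table were below 0 in 60 members and above 0 in 20, with a median of -0.09, while over all tested genes 49.6% were below 0 and the median was 0.00. At the authors' size factors most members' intervals were narrow. The 95% interval of the log2 fold change (1.96 SE on either side) lay wholly within a 1.5-fold change in either direction for 77 of 80 members, against 50.9% of all tested genes. Among genes with a base mean over 200 this held for 76 of 76 members and for 75.7% of 8851 tested genes. At the scale of all reads described further on this held for only 33 of 80 members, against 34.6% of all tested genes. At the authors' size factors the 3 members whose interval crossed that bound were Cox4i2, Cox7a1 and Cox6b2, whose base means in the authors' deposited table were 6.8, 41.5 and 104.7. Summed over the 80 members, estimated normalized counts were 117413 in control libraries and 110446 in those labelled Atg5-KD, a ratio of 0.941.

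**Figure D1:**
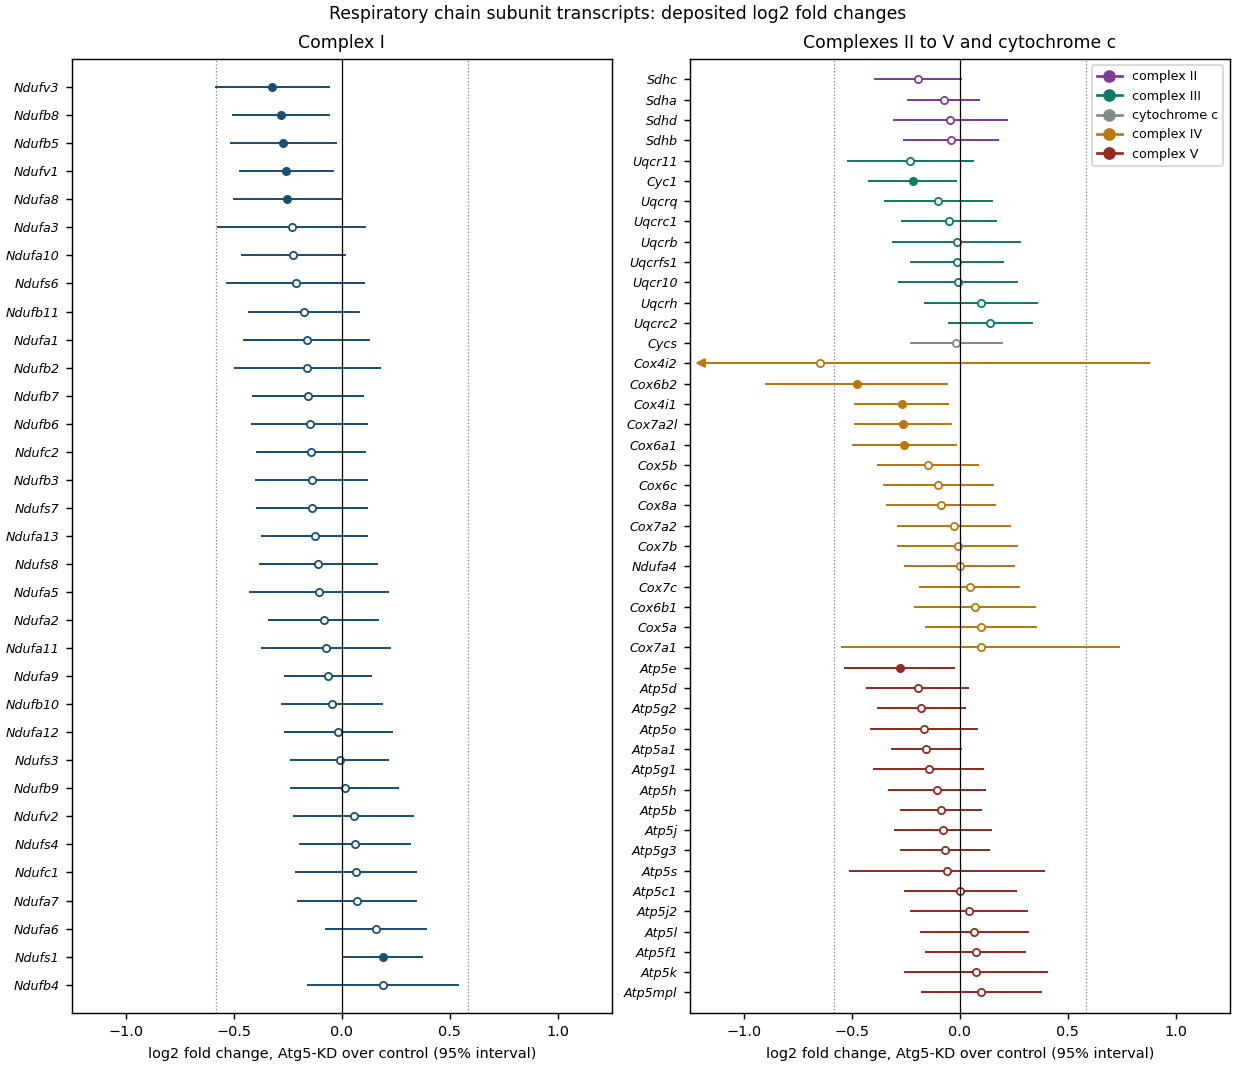
Log2 fold change of 79 of the 80 members (horizontal axis, Atg5-KD over control) with its 95% interval, complex I on the left and the other complexes on the right. Filled points have an unadjusted p under 0.05, dotted lines mark a 1.5-fold change, and the arrow shows that the interval of Cox4i2 runs beyond the axis. Most points sit slightly left of 0 and only the intervals of Cox4i2, Cox6b2 and Cox7a1 cross a dotted line.

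Facts of the whole comparison bear on these values. The direction, Atg5-KD over control, rests on which group the name of the table puts first. At the authors' size factors Atg5 gives no check of this direction either. Depth was estimated at 17300000 counted reads in each control library and at 12200000 in each labelled Atg5-KD. The ribosomal RNA locus Rn45s took an estimated 1.17% of normalized reads in control libraries and 17.9% in those labelled Atg5-KD. Granulosa markers Inha and Inhba, subunits of inhibin and activin, had base means of 30063 and 24381 in the authors' deposited table. Fshr had 93.4 and Amh, a marker of growing follicles, only 6.07. Cyp19a1, also among the 10 granulosa markers listed, was not among the tested genes. Of 9 tested granulosa markers, 5 were called in the authors' deposited table, in both directions. Those called higher were Nr5a2 at 0.62 and Inhba at 0.45, and those called lower Hsd17b1 at -0.79, Foxl2 at -0.49 and Fst at -0.26 in that table. Summed leukocyte markers were lower in libraries labelled Atg5-KD, 2254 in control against 565 normalized counts, as were theca and stroma markers (6873 against 3672) and smooth muscle markers (11631 against 5150). Of the tested markers of these lists, 9 of 12, 5 of 6 and 5 of 5 were called lower in the authors' deposited table, and Cyp17a1, which defines theca cells, had a base mean of 0.131. Markers of endothelium summed to 146 and 121 and those of oocytes to 61.3 and 72.5, with none called in the authors' deposited table. Of 5 erythroid markers 4 were at 0 and Alas2, an enzyme of heme synthesis in red cells, rose 3.90-fold at a base mean of 37.0 in that table. In bulk RNA fewer cells of a type and less RNA per cell cannot be told apart, and the part of these markers in the values of the respiratory chain was not tested.

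Complex I, which oxidizes NADH, had 34 members with a median log2 fold change of -0.13 in the authors' deposited table, 26 of them below 0 and 0 called. All 34 intervals stayed within a 1.5-fold change. With the trend of GC content and length removed, 21 of the 34 were below 0. Of the 7 nuclear-encoded core subunits, most of which carry the redox groups or line the quinone site, 5 were below 0 in the authors' deposited table. Ndufv1, which holds the flavin and binds NADH, had estimated means of 1245 normalized counts in control libraries and 1041 in those labelled Atg5-KD, a log2 fold change by the authors' deposited table of -0.26 ± 0.11 (SE) with a DESeq2 Wald adjusted p of 0.0792. Ndufs1, the largest iron-sulfur subunit of the same NADH-oxidizing part, had the opposite sign. Its estimated means were 1153 and 1315 normalized counts, with a log2 fold change of 0.19 ± 0.09 (SE) by the authors' deposited table (DESeq2 Wald adjusted p = 0.142). Ndufv2, the remaining core subunit on that side, stood at 0.05 ± 0.14 (SE) in the authors' deposited table. On the quinone side the deposited log2 fold changes were -0.01 for Ndufs3, -0.14 for Ndufs7 and -0.11 for Ndufs8, each within 2 SE of 0. With the trend of GC content and length removed, Ndufs3, Ndufs7 and Ndufs8 stood at 0.07, 0.08 and 0.06. On the NADH side Ndufv1 then stood at -0.09, Ndufv2 at -0.10 and Ndufs1 at 0.13. The difference between subunits of opposite sign was not tested.

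Accessory subunits of complex I stabilize the core and its assembly. Of the 27 accessory members, 21 were below 0 in the authors' deposited table, with a range from -0.32 to 0.19. The lowest was Ndufv3, a small subunit of the NADH-oxidizing part on chromosome 17 from 31520115 to 31531331 of GRCm38, the build called mm10. Its estimated means were 532 normalized counts in control libraries and 426 in those labelled Atg5-KD, and its deposited log2 fold change was -0.32 ± 0.13 (SE), with a DESeq2 Wald adjusted p of 0.0675. Ndufb8, a subunit of the membrane arm on chromosome 19 from 44548572 to 44555440, had the lowest adjusted p of all members. Its estimated means were 1063 and 874 normalized counts, a difference of -17.8% with an interval from -29.5% to -4.17%, and an adjusted p of 0.0566 in the authors' deposited table. Tested against only the 11296 genes with a base mean of at least 50, Ndufb8 was called (adjusted p = 0.0478), where 25.9% of genes were called. Ndufb5, also of the membrane arm, stood at -0.27 ± 0.12 (SE) and Ndufa8 at -0.25 ± 0.13 (SE) in the authors' deposited table, with adjusted p-values of 0.108 and 0.150. By name, 8 of 10 Ndufb members, with a median of -0.15, and 10 of 12 Ndufa members, with a median of -0.10, were below 0 in the authors' deposited table. Ndufb4 was the highest member of the complex at 0.19 ± 0.18 (SE) in that table and Ndufa6 followed Ndufs1 at 0.16 ± 0.12 (SE). Of the Ndufb4 transcript, 33.4% of all 100-base stretches also occur in Ndufb4c, a gene below the limit with a base mean of 0.370. How reads matching both genes were counted is not given, so the level of Ndufb4 is uncertain.

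Per kilobase of transcript, Ndufb4 had the lowest base mean of complex I, 270, although Ndufb2 would be lower, at 84.1 in place of 808, with its longest principal transcript. The transcript used for each gene was the shortest of its best supported principal transcripts in GENCODE M21. Among the accessory subunits Ndufa6, Ndufa7 and Ndufb8 were highest, at 1707, 1547 and 1424 base mean per kilobase. Ndufs1, with 477, and Ndufa5, with 407, were in the lower part of the order. One accessory subunit of complex I, Ndufs5, is listed at a base mean of 0 in the authors' deposited table, while the 34 complex I members all stand at 262 or above. The gene BC002163, which shares 27% of the 100-base stretches of Ndufs5, is listed at 5.20 in that table. This 0 is reported as listed, and its cause was not tested. The subunits Ndufab1 of complex I and Usmg5 of complex V, and the ATP synthase inhibitor Atpif1, have symbols outside the rule, and their deposited log2 fold changes were 0.10, -0.06 and 0.00.

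Complex II, succinate dehydrogenase, also serves in the TCA cycle and has no subunit encoded by mitochondrial DNA. All 4 genes were slightly below 0 in the authors' deposited table and none was called. Sdha, the flavoprotein that oxidizes succinate, had estimated means of 3265 normalized counts in control libraries and 3100 in those labelled Atg5-KD, with a deposited log2 fold change of -0.07 ± 0.08 (SE). Sdhb, the iron-sulfur subunit, stood at -0.04 ± 0.11 (SE) in the authors' deposited table, with estimated means of 1038 and 1009 normalized counts. The membrane anchor Sdhc, with estimated means of 1450 and 1269, had the lowest value, -0.19 ± 0.10 (SE), in the authors' deposited table (DESeq2 Wald adjusted p = 0.175). Sdhd, its partner in the membrane, stood at -0.04 ± 0.13 (SE) in the authors' deposited table. Per kilobase, Sdha, Sdhd and Sdhb had base means of 1097, 1033 and 896, and Sdhc 429.

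Complex III, which passes electrons from coenzyme Q to cytochrome c, had a median log2 fold change of -0.01 over 9 members in the authors' deposited table, 7 below 0 and 0 called. Cyc1, which encodes cytochrome c1, had estimated means of 1750 and 1504 normalized counts and a log2 fold change of -0.22 ± 0.10 (SE) by the authors' deposited table (DESeq2 Wald adjusted p = 0.122). The other redox subunit, the Rieske protein Uqcrfs1, stood at -0.01 ± 0.11 (SE) in the authors' deposited table, with estimated means of 1476 and 1463. The large core proteins had opposite signs in the authors' deposited table, Uqcrc1 at -0.05 ± 0.11 (SE) and Uqcrc2 at 0.14 ± 0.10 (SE), the highest of the complex. With the trend of GC content and length removed, Uqcrc1 stood at 0.13 and Uqcrc2 at 0.04, with the same sign. Among the small subunits the deposited log2 fold changes ran from -0.23 for Uqcr11 to 0.10 for Uqcrh, with Uqcrq at -0.10 and Uqcrb and Uqcr10 both at -0.01. Cytochrome c itself, encoded by Cycs, had estimated means of 1307 and 1293 normalized counts and a log2 fold change of -0.02 ± 0.11 (SE) by the authors' deposited table. Base means per kilobase of the redox and core subunits lay close together, 1070 for Cyc1, 1078 for Uqcrfs1, 1125 for Uqcrc2 and 1140 for Uqcrc1. The small subunits were higher, from 1535 for Uqcr11 to 3587 for Uqcrq, although Uqcrq would stand at 955 with its longest principal transcript.

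Complex IV, cytochrome c oxidase, had 15 members with a median of -0.09 in the authors' deposited table, 11 below 0 and 0 called. Its general subunits numbered 11, Ndufa4 among them, which carries a complex I name and is known as a subunit of complex IV. Of these, 8 were below 0 in the authors' deposited table. Cox4i1, the ubiquitous form of subunit 4, had estimated means of 3728 and 3095 normalized counts and a deposited log2 fold change of -0.27 ± 0.11 (SE), with a DESeq2 Wald adjusted p of 0.0647. Cox6a1, the ubiquitous form of subunit 6a, had estimated means of 4329 and 3621 and stood at -0.26 ± 0.12 (SE) in the authors' deposited table (adjusted p = 0.123). These were also the complex IV genes of highest level per kilobase, 6962 for Cox6a1 and 4579 for Cox4i1. The other general subunits ranged from -0.15 for Cox5b to 0.10 for Cox5a in the authors' deposited table, and Ndufa4 stood at 0.00 ± 0.13 (SE) with estimated means of 1548 and 1547. Cox7c, at 0.05 in that table, shares 44.4% of its 100-base stretches with other genes.

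Several complex IV subunits have forms that are known from other tissues. Cox4i1 had a base mean per kilobase 490 times that of Cox4i2, a form of lung, which at a base mean of 6.8 was the member nearest the limit and stood at -0.65 ± 0.78 (SE) in the authors' deposited table. Just below the limit were Ndufa4l2 with a base mean of 2.1 and Cox6a2, the muscle form of subunit 6a, with 1.51. Cox8a, the general form of subunit 8, stood at -0.09 ± 0.13 (SE) in the authors' deposited table, while Cox8b, Ndufb4c and Cox7b2 had base means of 0.498, 0.370 and 0.332, and Cox8c, like Ndufs5, was listed at 0. Cox6b2, a form best known from testis, was clearly present, with estimated means of 122 normalized counts in control libraries and 87.5 in those labelled Atg5-KD. By the authors' deposited table it stood at -0.48 ± 0.21 (SE), an estimated difference of -28.2% with an interval from -46.4% to -3.91%, and it missed the threshold (adjusted p = 0.0995). The general form Cox6b1 was 9.68 times as high per kilobase and stood at 0.07 ± 0.14 (SE) in the authors' deposited table. Cox7a1, the form of heart and skeletal muscle, stood at 0.10 ± 0.33 (SE) in the authors' deposited table, with a level per kilobase of 106 against 1272 for Cox7a2, whose log2 fold change there was -0.03. Cox7a2l, a relative of these that helps join complexes III and IV into supercomplexes, had estimated means of 1130 and 940 normalized counts and stood at -0.27 ± 0.11 (SE) in the authors' deposited table (adjusted p = 0.0806).

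Complex V had 17 members with a median of -0.08 in the authors' deposited table, 11 below 0 and 0 called. In the catalytic head, Atp5b, the beta subunit that binds and makes ATP, was the most abundant member with estimated means of 16031 and 15088 normalized counts and a deposited log2 fold change of -0.09 ± 0.10 (SE). The alpha subunit Atp5a1 had estimated means of 8580 and 7709 and the lowest SE of all members, with a log2 fold change of -0.15 ± 0.08 (SE) by the authors' deposited table (DESeq2 Wald adjusted p = 0.171). In the central stalk, which turns inside the head, Atp5c1 (gamma) stood at 0.00 ± 0.13 (SE), Atp5d (delta) at -0.20 ± 0.12 (SE) and Atp5e (epsilon) at -0.28 ± 0.13 (SE) in the authors' deposited table. Atp5e was the lowest of the complex, with estimated means of 799 and 659 normalized counts and an adjusted p of 0.112 in that table.

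The ring of c subunits through which protons pass is encoded by 3 genes whose products differ in the targeting peptide. All 3 were below 0 in the authors' deposited table, Atp5g1 at -0.14 ± 0.13 (SE), Atp5g2 at -0.18 ± 0.10 (SE) and Atp5g3 at -0.07 ± 0.10 (SE). Estimated means were 1146 and 1037 for Atp5g1, 1647 and 1456 for Atp5g2, and 2990 and 2849 for Atp5g3. Every 100-base stretch of the Atp5g2 transcript and 57.3% of those of Atp5g1 occur in other annotated genes, so these values are uncertain. In the peripheral stalk, which holds the head still, Atp5o, Atp5h and Atp5j stood at -0.17, -0.11 and -0.08 and Atp5f1 at 0.07 in the authors' deposited table. The 4 small membrane subunits among the members, Atp5k, Atp5l, Atp5j2 and Atp5mpl, lay above 0 in the authors' deposited table. They stood between 0.04 and 0.10, each within 1 SE of 0. With the trend of GC content and length removed, Atp5k and Atp5j2 stood at 0.07 and 0.03, and Atp5l and Atp5mpl at -0.03 and -0.14. Usmg5 of complex V, outside the rule, had a deposited value of -0.06 ± 0.14 (SE). Atp5l shares 61.3% of its 100-base stretches with other genes, and Atp5h of the stalk shares 32.7%. Atp5s, or factor B, stood at -0.06 ± 0.23 (SE) in the authors' deposited table at a base mean of 97.9. Per kilobase, Atp5b had 3.85 times and Atp5a1 1.56 times the base mean of Atp5c1.

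**Figure D2:**
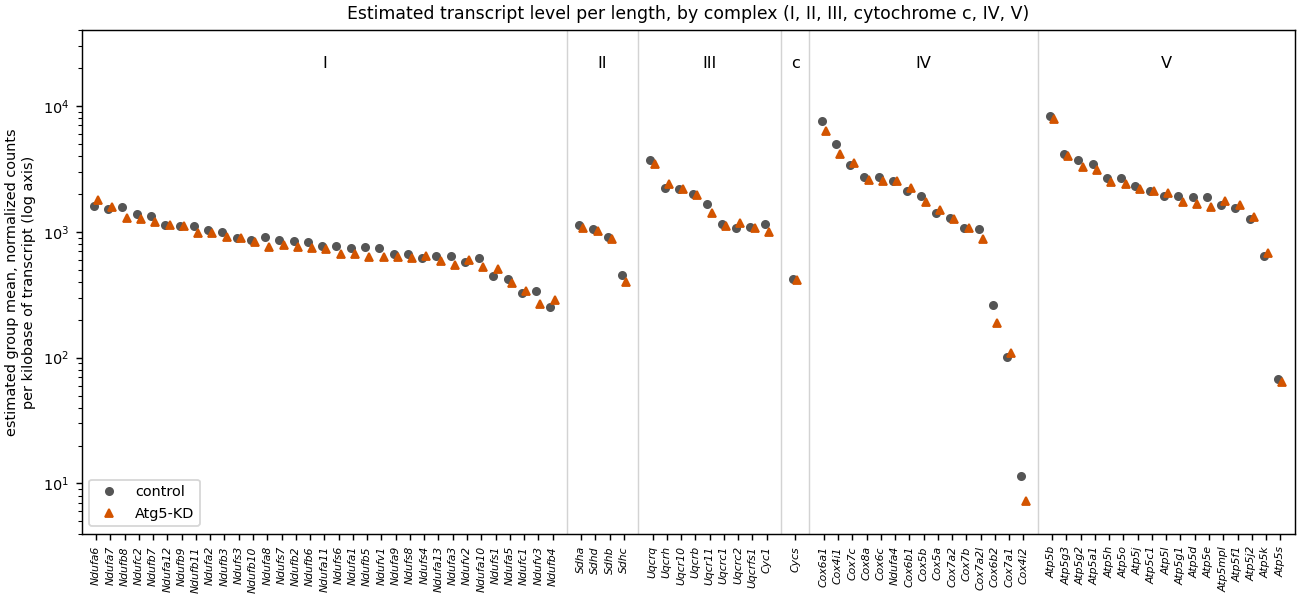
Estimated mean level of 79 of the 80 members in control (circles) and Atg5-KD (triangles), in normalized counts per kilobase of transcript on a log axis, ordered within each complex. The pair of symbols of a gene lies close together, while levels within complex IV run from Cox4i2 at about 9.35 to Cox6a1 at 6962 base mean per kilobase.

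The scaling between the groups set how many members were called. Rescaled to the estimated total of all reads, Rn45s included, every log2 fold change dropped by 0.30, all 80 members were below 0 and 55 of 80 were called, all lower, against 42.3% of all tested genes called in either direction and 38.7% called lower. The 25 members not called at that scale included Ndufs1, Ndufv2, Uqcrc2, Cox5a, Atp5f1 and Atp5c1. Without Rn45s in the total the log2 fold changes dropped by 0.03, and 5 members were called, all lower, against 21.5% of all tested genes called in either direction and 12.2% called lower. These 5 were Ndufb8 (adjusted p = 0.0292), Cox4i1, Ndufv3, Ndufv1 and Cox7a2l (adjusted p = 0.0434), from Benjamini-Hochberg adjustment of shifted DESeq2 Wald statistics. With the trend of the log2 fold change on GC content and transcript length removed, 0 of 80 were called, against 13.7% of all genes with a transcript, and the median of the members stayed at -0.09, 27 of them above 0 and 53 below. With adjusted p under 0.1 as the threshold 6 members were called, against 26.1% of all tested genes. With the median of all tested genes set to 0 none was called, against 21% of all, and with adjustment over all rows with a p-value none was called, against 19.5%. After removal of the trend the medians were -0.10 for complex I, -0.08 for complex II, -0.00 for complex III, -0.12 for complex IV and -0.05 for complex V.

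**Figure D3:**
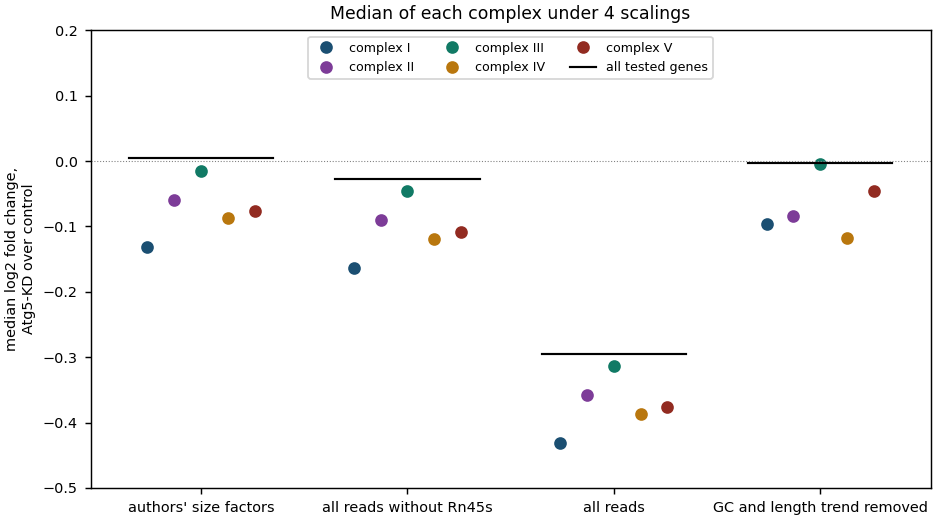
Median log2 fold change (vertical axis) of the members of complexes I to V under the authors' size factors, under 2 rescalings to total reads and after removal of the trend with GC content and length, with the median of all tested genes as a black line. The rescaling to all reads moves the line and the complexes together by 0.30.

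Genes that build or serve the chain were counted in the same way. Of 48 tested assembly factors, which insert cofactors and join subunits, 1 was called higher, none lower, according to the authors' deposited table, Coa5 at 0.27 ± 0.09 (SE). Their median was 0.05 and 15 of 48 were below 0 in that table, against 60 of 80 subunits. Of 78 mitochondrial ribosomal proteins, which make the subunits encoded by mitochondrial DNA, 2 were called lower in the authors' deposited table, Mrpl4 at -0.50 ± 0.13 (SE) and Mrpl37 at -0.30 ± 0.11 (SE), with a median of -0.06. Mitochondrial import was a list of 24 tested rows with symbols of Tomm or Timm followed by a digit. It includes Tomm6os, by its name an opposite-strand transcript. In this list 1 row, Tomm70a at 0.25, was called higher by the authors' deposited table. There 3 rows, Tomm6 at -0.47, Timm13 at -0.36 and Tomm40 at -0.31, were called lower. Among 17 genes of coenzyme Q synthesis and other electron donors, the prenyl chain synthase subunits Pdss1 and Pdss2 rose, according to the authors' deposited table, at 0.57 ± 0.21 (SE) and 0.54 ± 0.20 (SE), and 0 were called lower. In ATP and phosphate exchange the uncoupling protein Ucp2 fell by 0.67 on the log2 scale and the ADP/ATP carrier Slc25a4 by 0.24, in the authors' deposited table, among 10 tested. Of 12 genes that control mitochondrial biogenesis, Perm1 rose 2.39-fold and Gabpa, a transcription factor of many respiratory genes, 1.29-fold in the authors' deposited table, with 0 called lower. Nrf1, another such factor, stood at 0.02 ± 0.12 (SE) in the authors' deposited table. There Tfam, which packs mitochondrial DNA and serves its transcription, stood at 0.14 ± 0.13 (SE). At the authors' size factors 20.9% of all tested genes were called, and each of these lists had a lower share. It was 2.1% for assembly factors, 2.6% for mitochondrial ribosomal proteins and 11.8% for coenzyme Q and other donors. It was 16.7% for biogenesis and for import and 20% for ATP and phosphate exchange. The scale of all reads lowers each log2 fold change by 0.30, which is more than the 0.27 of Coa5 and the 0.25 of Tomm70a. Whether the other genes named as higher would still be called higher there was not judged. At the scale of all reads 44 of the 78 mitochondrial ribosomal proteins and 17 of the 24 rows of the import list were called. So were 10 of the 48 assembly factors and 7 of the 17 genes of coenzyme Q and other donors. The counts were 4 of 12 for biogenesis and 6 of 10 for ATP and phosphate exchange. All these counts are in either direction, against 42.3% of all tested genes. Whether the subunits differ from any of these lists was not tested.

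**Figure D4:**
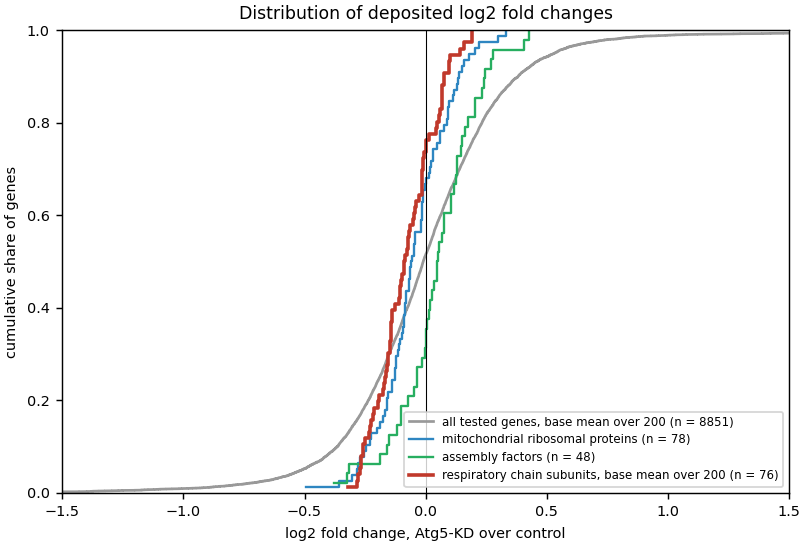
Cumulative share of genes (vertical axis) by log2 fold change (horizontal axis) for the 76 members with a base mean over 200, 78 mitochondrial ribosomal proteins, 48 assembly factors and 8851 tested genes with a base mean over 200. The members rise steeply just below 0, from -0.32 to 0.19, while the curve of all genes spreads widely to both sides.

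The members share features beside their symbols, and of these the rule used only the base mean, as a lower limit. Their transcripts had a median length of 760.5 bases, against 2788.5 for the 14680 tested genes with a transcript. Against the same genes, the members had a median GC content of 51.8% against 50.5% and a median base mean of 1030 against 335. They lie on 19 chromosomes, 3 of them on X. Respiratory genes are known for promoters bound by NRF1, GABP and YY1, and their core motifs were searched on both strands in the RefSeq promoters of GRCm38.p6, from 250 bases before to 50 after the start. At least 1 promoter was listed for 64 of the 80 members, and those without an entry include Atp5a1, Atp5f1, Atp5mpl, Atp5s, Cox4i1, Cox4i2, Cox6c, Cyc1, Ndufa2, Ndufb9, Ndufs1, Sdhc, Uqcrb, Uqcrc2 and Uqcrq. The NRF1 core GCGCATGCG was found in 9 of 69 member promoters (13%), in 1.75% of all 32851 promoters and in 3.31% of the promoters of tested genes. The GABP motif CCGGAAG was found in 16 member promoters (23.2%), in 8.86% of all and in 15.9% of those of tested genes. The YY1 motif AAGATGGCG was found in 7 member promoters (10.1%), in 1.40% of all and in 2.62% of those of tested genes. The last letters of the GABP motif are the first of the YY1 motif, so matches of these can overlap. The members with the NRF1 core were Atp5g2, Atp5k, Atp5l, Cox6a1, Cycs, Ndufa11, Ndufa8, Uqcr11 and Uqcrc1. Their median was -0.07 in the authors' deposited table, against -0.09 for the other 55 members with a promoter. Members with the GABP motif had a median of -0.08 in the authors' deposited table, as did the 48 without it. The YY1 motif marked members with a median of -0.07 in the authors' deposited table, against -0.09 for the 57 without it. The stretch around the NRF1 core is printed for the 5 members whose match has 30 bases on either side before the start, as the sequence feature they share, with the core (or its reverse complement CGCATGCGC) in capitals.
Atp5g2, chr15:102671051-102671119, minus strand: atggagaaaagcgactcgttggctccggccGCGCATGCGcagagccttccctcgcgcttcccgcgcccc
Atp5k, chr5:108434411-108434479, minus strand: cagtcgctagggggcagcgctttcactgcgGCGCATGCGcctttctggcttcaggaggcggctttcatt
Cox6a1, chr5:115349082-115349150, minus strand: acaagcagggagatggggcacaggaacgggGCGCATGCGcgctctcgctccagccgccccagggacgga
Cycs, chr6:50566592-50566660, minus strand: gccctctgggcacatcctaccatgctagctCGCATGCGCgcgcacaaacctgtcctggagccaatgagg
Ndufa11, chr17:56717672-56717740, plus strand: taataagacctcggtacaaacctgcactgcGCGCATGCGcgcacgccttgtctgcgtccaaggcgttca
The core starts 42, 50, 162, 61 and 60 bases before the start in Atp5g2, Atp5k, Cox6a1, Cycs and Ndufa11. A match is a description of these letters and shows neither binding nor a cause of any value above.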

How the data were processed

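Per the labels' protocols, libraries were made from poly(A) RNA with a NEBNext Ultra kit or, in the same text, from amplified cDNA with a TruePrep kit, and the sources used here do not give strandedness. Tools listed in the submitters' processing notes are DESeq2 1.30.1, StringTie 2.1.4, featureCounts 1.6.2 and STAR, with mm10 as the build and no role or order. The deposited table has DESeq2 column names, per the file headers. The base mean was computed by the authors as a normalized signal. Its log2 fold change and standard error were computed by the authors on the log2 scale. The authors deposited the Wald statistic as a score, beside the p-value and the adjusted p-value. Recomputing the statistic, the p-value and the adjustment over 14835 rows gave 0 differences at a tolerance of 1e-06. The planned quasi-likelihood test needs values per library and was not run, so the plan's Wald branch was used.

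Group means were computed from base mean and fold change, taking both groups as equal in size. Size factors, from 0.703 to 0.805 in libraries labelled Atg5-KD and 1.27 to 1.37 in control, were read from rows with 1 read in 1 library and used for depth only. GC content and length came from GENCODE M21 transcripts, which matched 14680 tested rows and all 80 members, and the trend was a robust spline fit (statsmodels 0.14.6, Python 3.11.15) tested on simulated data. Named members were those with an unadjusted p under 0.05, the most abundant, the extremes, the core subunits and the paralogs of each complex. Genes of other lists were named when called. The small subunits of complexes I, III and V, Ndufab1, Usmg5, Atpif1, Nrf1, Tfam and the marker genes fall outside that rule, and their values were known when they were picked. Promoter motifs were cut to under 10 letters after a longer version had been searched. Members and lists were chosen with earlier results of these data known. Values of 1 member are not reported here, and it stays in the counts, sums and medians.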

Additional observations from a re-analysis of the deposited data

How the results depend on the processing

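No paired analysis was possible because the deposited table holds no values per library, and for the same reason no fit without a replicate, no replicate block and no other count tool were run. With totals of all reads as the scale, 55 of 80 members were called, all lower, with a median log2 fold change of -0.38. Of all tested genes 42.3% were called at that scale, 38.7% lower, with a median of -0.29. By complex the calls and medians at that scale were 26 and -0.43 for complex I, 4 and -0.36 for complex II, 5 and -0.31 for complex III, 1 and -0.31 for cytochrome c, 9 and -0.39 for complex IV, and 10 and -0.38 for complex V. Without Rn45s in the total, a scale chosen after seeing the data, 5 members were called, 3 of complex I and 2 of complex IV. This scale called 21.5% of all tested genes, 12.2% lower. With only base means of at least 50, 1 member of complex I was called, against 25.9% of the 11296 genes. Thresholds added after seeing the data called 6 members at an adjusted p under 0.1 (3 of complex I and 3 of complex IV) and 12 at an unadjusted p under 0.05 (6 of complex I, 1 of complex III, 4 of complex IV and 1 of complex V). The shares of all tested genes at these thresholds were 26.1% and 31.5%. With the trend of GC content and length removed, cytochrome c moved to -0.21 and no member was called, at 13.7% of all genes. The other settings, with the median of all genes set to 0 or with adjustment over all rows with a p-value, called 0 members. They called 21% and 19.5% of all tested genes. A t distribution with 4 degrees of freedom also called 0 members, but it called 0 of all 14835 genes and so says nothing about the members. The cause of these differences beyond the shifts themselves was not tested. At the scale of all reads 33 of 80 intervals stayed within a 1.5-fold change, against 77 at the authors' size factors. Depth limits Cox4i2, Cox7a1 and Atp5s most, the members of lowest base mean. The base mean per kilobase of 6 members, Ndufb2, Uqcrq, Atp5d, Atp5g1, Atp5g2 and Atp5mpl, moves by over 1.5 times with the longest principal transcript.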
